A study of Mus musculus with 4 samples.

Results

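The genes described are 10 components of gp130 cytokine signalling in cultured mouse neural progenitors: the receptor chains *Il6st*, *Lifr*, *Osmr*, *Cntfr* and *Il6ra*, the ligands *Lif* and *Clcf1*, the feedback inhibitors *Socs2* and *Socs3*, and the kinase gene *Pim1*. They were chosen by symbol, and all 10 were found among the 21091 entries of the deposited tables. RNA was sequenced from 4 libraries, with 1 library per group and no replicate. All were of strain C57BL/6, from embryonic brains at embryonic day 11 (E11) or 14 (E14), grown for 3 days in suspension as neurospheres in serum-free medium with EGF and FGF. At each stage, a control library, labelled WT and called CTL here, was set beside a conditional *Stat3* knockout, called cKO here, with floxed *Stat3* alleles deleted by Nestin-Cre. Nestin-Cre acts in neural progenitors, so other cells of a culture need not lose *Stat3*. The study's animal methods describe controls that also carry Nestin-Cre and are heterozygous for floxed *Stat3*, whereas its RNA-seq methods and the labels say wild type. The floxed exons encode the SH2 domain, so transcript from the rest of the gene can still be measured after deletion. How many embryos gave each library is not stated in the labels.

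Cytokines of the interleukin-6 family signal through gp130, the receptor chain that *Il6st* encodes. LIF joins gp130 to LIFR, while CNTF and CLCF1 bind CNTFR before the same pair assembles, and interleukin-6 and oncostatin M use IL6RA and OSMR. Kinases bound to these chains phosphorylate STAT3, which enters the nucleus and switches on genes such as *Socs3*, whose product binds gp130 and its kinases and damps the signal. In embryonic brain the pathway is known for switching on *Gfap* and other astrocyte genes.

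Values are FPKM, fragment numbers scaled to the length of the transcript and to the mapped fragments of the library, so that levels can be compared between genes. Library depth was estimated from the steps that single fragments leave in low values, which placed the libraries at 0.832 to 1.07 times the depth of E14 cKO, and counting errors below rest on that estimate. Positions are those listed in the tables, for which the submitters name mm8 and mm9 without saying which. The errors cover counting only, and no spread between embryos or cultures can be given. *Stat3* itself had 7.41 FPKM in E11 CTL, 6.74 in E11 cKO, 27.6 in E14 CTL and 9.55 in E14 cKO. It was thus 2.89-fold lower in cKO at E14 and 1.10-fold lower at E11, so its transcript level gives little check of the E11 labels. The study says that this cross deletes *Stat3* in neural progenitors by E14, and how much STAT3 remained in E11 cKO was not tested here. All 12 neural progenitor markers examined had at least 1 FPKM in every library, and the highest mean was that of *Fabp7*, a fatty acid binding protein of radial glia. The E11 libraries also held high levels of mesenchymal and pericyte markers. Their 9 genes summed to 1394 FPKM in E11 CTL and 1252 in E11 cKO, against 17.3 in E14 CTL and 12.2 in E14 cKO. The highest of them was *Col3a1*, a fibrillar collagen, at 674, 586, 7.64 and 4.29 FPKM in the same order, and none was at 0 in any library. The 9 microglia and leukocyte markers summed to 11.0, 7.25, 1.61 and 1.58 FPKM, with the highest mean for *Tyrobp*, and the 7 endothelial markers, with the highest mean for *Kdr*, to 4.64, 4.86, 1.18 and 1.73. In a bulk sample, fewer cells of a type and less RNA per cell cannot be told apart. Y-linked transcripts separated the E14 libraries as genotype did: *Ddx3y* had 0.0569 FPKM in E14 CTL and 25.1 in E14 cKO, and was listed at 0 in both E11 libraries. At E14, what goes with sex and what goes with genotype cannot be told apart. Between E11 cKO and E14 cKO, what goes with sex and what goes with stage cannot be told apart either.

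The 10 genes spanned a wide range of levels. *Il6st*, *Lifr*, *Cntfr*, *Socs2*, *Socs3* and *Pim1* averaged 1 FPKM or more and were used for ratios. *Osmr*, *Il6ra*, *Lif* and *Clcf1* did not reach it. In both E11 libraries *Il6st* was the highest of the 10, whereas in both E14 libraries *Socs2* was the highest, followed by *Lifr* and then *Il6st*. The receptors for LIF and CNTF were thus all represented, and the subunits particular to interleukin-6 and oncostatin M stayed below 0.2 FPKM.

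**Figure D1:**
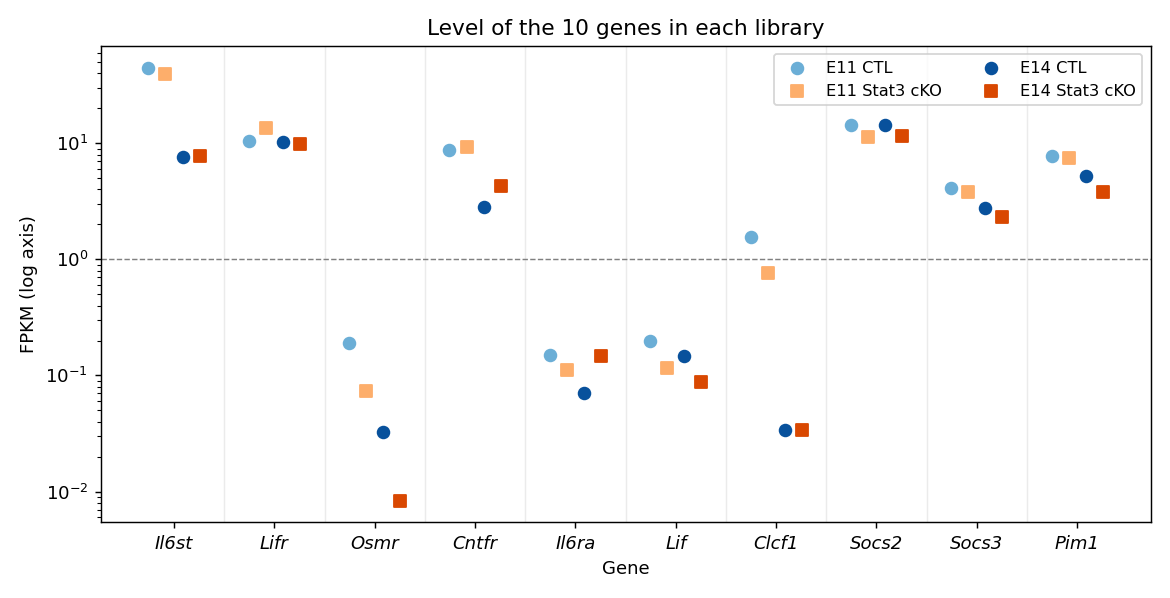
FPKM of the 10 genes (log axis) in E11 CTL, E11 cKO, E14 CTL and E14 cKO, with 1 point per library and no error bar because no group had a replicate. The dashed line marks 1 FPKM, and *Il6st* and *Clcf1* sit lower in both E14 libraries than in both E11 libraries.

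*Il6st*, listed at chr13:113254277-113297068, had the largest change with stage among the 6 genes used for ratios. It had 44.9 FPKM in E11 CTL, 39.4 in E11 cKO, 7.58 in E14 CTL and 7.73 in E14 cKO. Both E11 libraries were far above both E14 libraries, and the genotypes lay close together within each stage. The level at E14 was 5.92-fold below E11 in CTL and 5.10-fold below in cKO, with a counting error of 0.029 on the log2 scale for each. Within its library, *Il6st* exceeded 86.4% of the 12449 genes analysed in E11 CTL and 37.6% in E14 CTL, a measure that does not depend on scaling between libraries. Between genotypes, cKO over CTL, the log2 ratio was 0.028 at E14, with a counting error of 0.037, and -0.19 at E11, with a counting error of 0.016.

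*Lifr* (chr15:7079571-7147489), which encodes the partner of gp130 in the LIF receptor, had 10.6, 13.4, 10.2 and 9.84 FPKM in E11 CTL, E11 cKO, E14 CTL and E14 cKO. Of the 4 values, the one of E11 cKO stood highest, 1.27 times that of E11 CTL, and the other three lay close together. The balance of the receptor chains therefore differed between stages. *Il6st* was 4.25 times *Lifr* in E11 CTL and 2.93 times in E11 cKO, but 0.744 times in E14 CTL and 0.786 times in E14 cKO. Being taken within a library, these ratios are free of scaling between libraries.

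*Cntfr* (chr4:41604528-41644123) encodes the chain that binds CNTF and CLCF1 and is held at the membrane by a lipid anchor. It had 8.72 FPKM in E11 CTL, 9.21 in E11 cKO, 2.85 in E14 CTL and 4.28 in E14 cKO. Both E14 libraries were lower than both E11 libraries, by 3.06-fold in CTL and 2.15-fold in cKO. At E14 it was higher in cKO than in CTL, by a log2 ratio of 0.59 with a counting error of 0.12. That was the largest genotype ratio of the 6 genes at E14, and it lay inside the range from the 5th to the 95th percentile of all genes analysed, which ran from -0.70 to 0.64. At E11 the log2 ratio was 0.079.

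The other receptor chains were barely detected. *Osmr* had 0.190, 0.0740, 0.0324 and 0.00836 FPKM in E11 CTL, E11 cKO, E14 CTL and E14 cKO, which stands for about 52, 16, 7.8 and 2.1 fragments. Each cKO value was below the CTL value of its stage, but so few fragments at E14 carry no reliable ratio. *Il6ra* had 0.149, 0.111, 0.0702 and 0.148 FPKM in the same order, about 64, 37, 27 and 60 fragments, with no common direction between the stages.

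The ligands were low as well. *Lif* had 0.199 FPKM in E11 CTL, 0.115 in E11 cKO, 0.146 in E14 CTL and 0.0886 in E14 cKO. It was lower in cKO at both stages, with log2 ratios of -0.79 at E11 and -0.72 at E14 and counting errors of 0.41 and 0.45. These differences are under 2 times their counting errors. *Clcf1*, which encodes cardiotrophin-like cytokine, had 1.57 FPKM in E11 CTL, 0.757 in E11 cKO, 0.0336 in E14 CTL and 0.0339 in E14 cKO. At E11 its value in cKO was 2.07-fold lower than in CTL, a log2 ratio of -1.05 with a counting error of 0.17. The E14 values stand for about 5.2 and 5.6 fragments, and E14 CTL lay 46.7-fold below E11 CTL, a log2 ratio of -5.54 with a counting error of 0.64. Between the E11 libraries, the summed microglia markers were also lower in cKO, at 7.25 FPKM against 11.0, while of the 8 mesenchymal markers used for ratios 4 were higher and 4 lower in cKO. Their part in the values of *Clcf1* was not tested.

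Within the pathway list, the remaining ligands were mostly below the minimum. *Ctf1*, which encodes cardiotrophin-1, passed it, with 2.90, 2.82, 2.75 and 2.78 FPKM in E11 CTL, E11 cKO, E14 CTL and E14 cKO. Its 4 values were nearly level, in contrast to those of *Clcf1*. *Cntf* appears only in an entry joined with *Zfp91* and was given no value. Of 5 other receptor chains, *Il11ra1*, the interleukin-11 receptor, and *Lepr*, the leptin receptor, passed, *Lepr* through its E11 values alone. Both had at least 2-fold lower values at E14, as 12.5% of all genes did in CTL and 11.7% in cKO. *Il11ra1* had 34.7, 39.0, 4.45 and 7.25 FPKM, and *Lepr* had 15.4, 9.91, 0.261 and 0.212. *Lepr* was picked out after its values were seen.

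In both genotypes, 2 of the 6 genes used for ratios, *Il6st* and *Cntfr*, were at least 2-fold lower at E14 than at E11, and none was as much higher. Among all genes with a ratio, 12.5% were lower and 14.6% higher by that margin in CTL, 27.1% in either direction. In cKO the shares were 11.7% lower, 10.1% higher and 21.8% in either direction. The median log2 ratio of the 6 genes was -0.58 in CTL and -0.85 in cKO, against 0.21 and 0.058 over all genes. In the plot of receptor chains and mesenchymal markers, *Il6st*, *Cntfr*, *Clcf1*, *Il11ra1* and *Lepr* were lower at E14, as most of the marker list was. In CTL the 8 markers used for ratios had a median log2 ratio of -6.50, against -2.57 for *Il6st* and -1.61 for *Cntfr*. Of the 12 neural progenitor markers, 2 were at least 2-fold lower at E14 in CTL and 3 as much higher. Of the 9 mesenchymal markers, 9 had at least 1 FPKM in E11 CTL, 8 in E11 cKO, 3 in E14 CTL and 5 in E14 cKO. *Acta2*, a smooth muscle actin gene, went its own way, with 1.08, 0.264, 0.754 and 1.47 FPKM. The part of these cells in the stage differences was not tested, and *Lifr*, *Socs2* and *Ctf1* had no fall of 2-fold. The genotypes cannot serve as replicates of the stage comparison, and in cKO the Y-linked transcripts differed between the stages too.

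**Figure D2:**
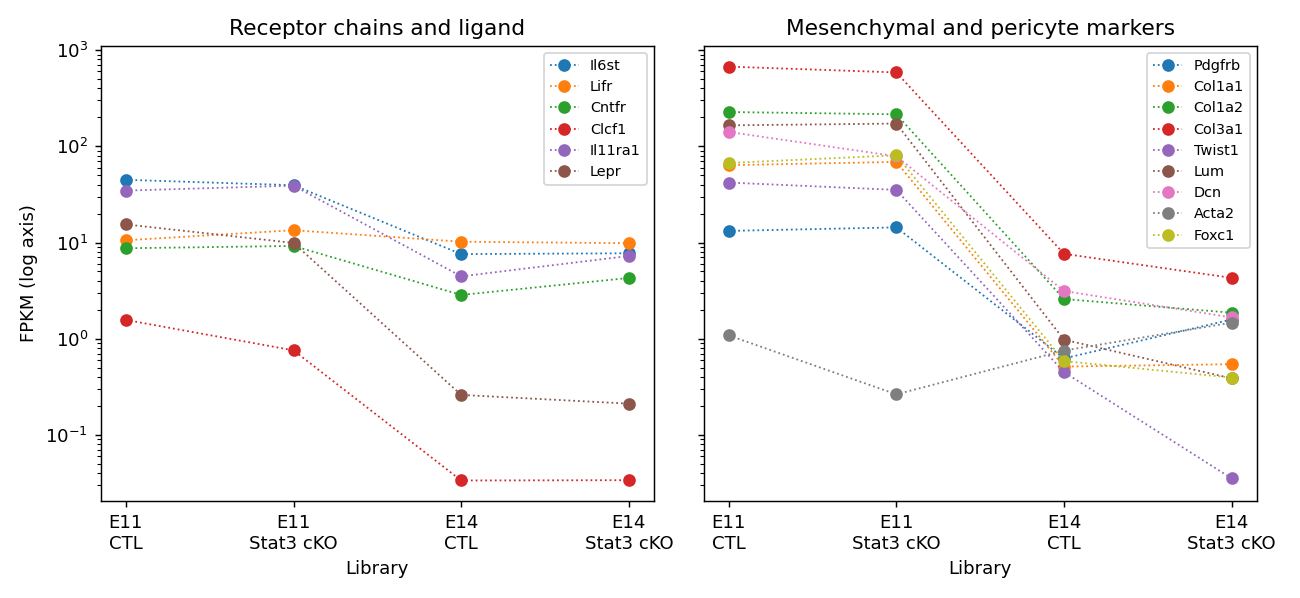
FPKM (log axis) of receptor chains and *Clcf1* (left) and of 9 mesenchymal and pericyte markers (right) in the 4 libraries, with dotted lines that only join the values of a gene. *Il6st*, *Il11ra1*, *Lepr* and *Clcf1* drop between the E11 and E14 libraries as 8 of the 9 markers do (*Acta2* is higher at E14 in cKO), whereas *Lifr* lies between 9.84 and 13.4 FPKM in the 4 libraries.

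By the distance between log2(FPKM + 0.1) values centred over the 4 libraries, the genes with a profile most like *Il6st* among 9215 averaging 5 FPKM or more were *Rarg*, which encodes a retinoic acid receptor, the joined entry of *Meg3*, a long non-coding RNA, and *Tgfb2*, which encodes a growth factor. Their distances were 0.049, 0.15 and 0.18. *Rarg* had 8.64 FPKM in E11 cKO, 1.67 in E14 CTL and 1.63 in E14 cKO. The profile most like *Socs3* was that of *Ppp1r15b*, a phosphatase subunit gene of the stress response, at a distance of 0.060, followed by *Cdyl* at 0.061 and *Lats1* at 0.069. With 4 libraries such likeness is a description only.

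*Socs3* (chr11:117827400-117830680) is the textbook feedback gene of gp130 signalling. It had 4.15 FPKM in E11 CTL, 3.82 in E11 cKO, 2.78 in E14 CTL and 2.34 in E14 cKO. The order of the libraries was the same as for *Pim1* below, with the lowest value in E14 cKO. Between genotypes its log2 ratio was -0.25 at E14 and -0.12 at E11, with counting errors of 0.12 and 0.097. From E11 to E14 the log2 ratio was -0.57 in CTL and -0.71 in cKO. *Socs3* remained detected in E14 cKO, where *Stat3* transcript was 2.89-fold lower.

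The promoters of the members were searched for TTCNNNGAA, the palindromic element that STAT dimers bind, in windows from 250 bases before to 50 bases after each RefSeq start (build GRCm38.p6, not the build of the deposited positions). Entries were found for 8 of the 10 genes, with 15 windows. The only match was in *Socs3*, while 8.30% of all 32851 windows held the element, which reads the same on both strands. The *Socs3* window is shown because of this match (chr11:117969317-117969616, minus strand), with the match in capitals, which starts 154 bases before the transcript start. The *Il6st* window (chr13:112463820-112464119, plus strand) is shown as that of the gene with the largest stage difference among the 6 used for ratios, and it holds no match.
Socs3: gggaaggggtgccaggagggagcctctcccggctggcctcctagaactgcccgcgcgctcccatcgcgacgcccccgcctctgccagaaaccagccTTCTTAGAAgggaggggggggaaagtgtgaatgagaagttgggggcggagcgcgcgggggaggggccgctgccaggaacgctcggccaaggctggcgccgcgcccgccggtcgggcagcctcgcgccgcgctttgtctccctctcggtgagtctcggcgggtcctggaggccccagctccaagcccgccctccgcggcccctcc
Il6st: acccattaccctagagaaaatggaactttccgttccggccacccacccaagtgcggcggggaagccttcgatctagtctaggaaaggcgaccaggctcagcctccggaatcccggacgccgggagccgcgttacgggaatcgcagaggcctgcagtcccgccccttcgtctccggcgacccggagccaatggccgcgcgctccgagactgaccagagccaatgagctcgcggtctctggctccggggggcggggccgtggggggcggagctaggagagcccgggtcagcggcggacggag
A match of letters does not show binding, and its absence from these windows says nothing of sites elsewhere.

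*Socs2* (chr10:94874123-94879491) encodes an inhibitor known mainly for restraining growth hormone signalling. It had 14.4 FPKM in E11 CTL, 11.4 in E11 cKO, 14.4 in E14 CTL and 11.6 in E14 cKO. Both cKO libraries were below both CTL libraries, and the stages of a genotype lay close together. The log2 ratios were -0.31 at E14 and -0.34 at E11, with counting errors of 0.041 and 0.042, and the log2 ratio of the stages was 0.0016 in CTL and 0.033 in cKO, both of which turn negative under other scalings (-0.37 and -0.12 with upper-quartile scaling). *Socs2* exceeded *Socs3* by 3.46-fold in E11 CTL and 5.16-fold in E14 CTL.

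*Pim1* (chr17:29627989-29632404) encodes a serine/threonine kinase that promotes survival and is induced by STAT signalling. It had 7.80 FPKM in E11 CTL, 7.53 in E11 cKO, 5.19 in E14 CTL and 3.79 in E14 cKO. Both E14 values were below both E11 values. At E14 it was 1.37-fold lower in cKO, a log2 ratio of -0.45 with a counting error of 0.088, and at E11 the log2 ratio was -0.051. From E11 to E14 the log2 ratio was -0.59 in CTL and -0.99 in cKO, the latter just short of 2-fold.

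Between genotypes, none of the 6 genes used for ratios differed by 2-fold at either stage. Of all genes with a ratio, 3.54% did at E14 (1.85% higher, 1.69% lower) and 1.33% at E11 (0.209% higher, 1.12% lower). At E14, *Socs2*, *Socs3*, *Pim1* and *Lifr* had ratios below 1 (*Lifr* above 1 with median or upper-quartile scaling) and *Il6st* and *Cntfr* above 1, with a median log2 ratio of -0.15 for the 6 genes and -0.079 for all genes. At E11, *Il6st*, *Socs2*, *Socs3* and *Pim1* were below 1, with a median of -0.084, against 0.059 for all genes. *Socs2*, *Socs3* and *Pim1* had ratios below 1 at both stages, but at E11 those of *Socs3* and *Pim1* were within 2 counting errors of no difference (0.097 and 0.068). At E14 that of *Socs3* was too under other scalings, at -0.17 with median and -0.099 with upper-quartile scaling.

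**Figure D3:**
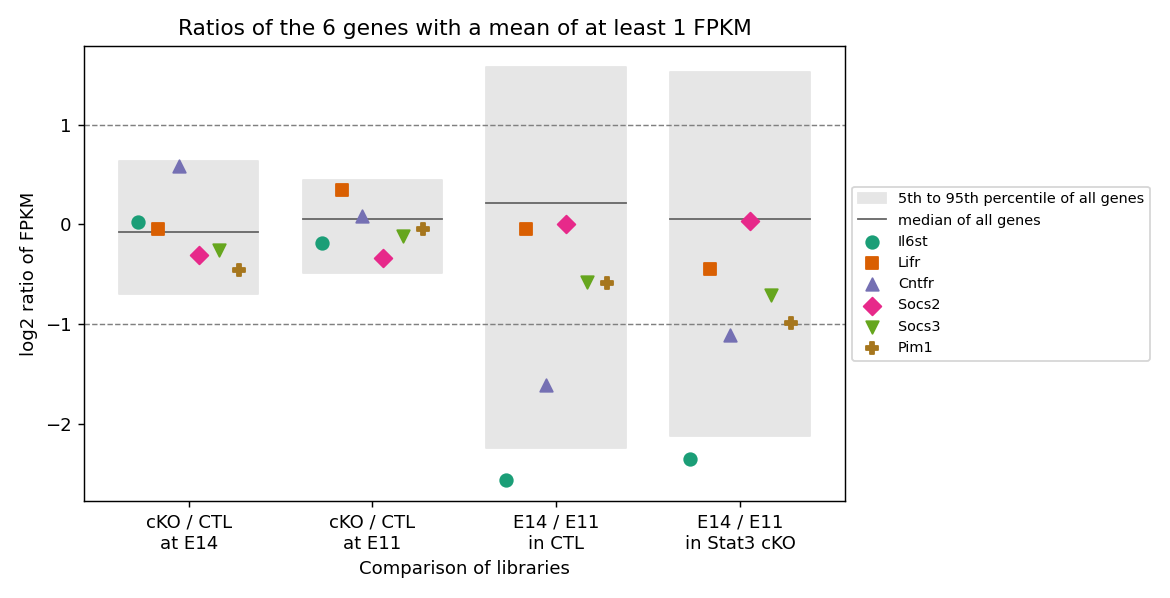
Log2 ratios of FPKM for the 6 genes averaging 1 FPKM or more in the 4 comparisons of libraries, with 1 library on each side and no error bar. Grey boxes span the 5th to the 95th percentile of all genes analysed, grey lines their median and dashed lines 2-fold, and *Il6st* lies below the box in both stage comparisons.

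The signal transducers and other inhibitors of the pathway are given by their counts, beside shares of 3.54% at E14 and 1.33% at E11 among all genes. Of 13 kinases, STATs and adaptors, 11 passed 1 FPKM, and *Stat3* was the only one of them at least 2-fold apart between genotypes at E14, while none was at E11. The highest by its mean over the libraries was *Ptpn11*, which encodes the phosphatase SHP2, at 27.6, 30.7, 32.2 and 28.4 FPKM in E11 CTL, E11 cKO, E14 CTL and E14 cKO. Of 13 other SOCS, PIAS and phosphatase genes, 11 passed and none differed by 2-fold at either stage, with log2 ratios from -0.45 to 0.15 at E14. *Pias2*, which encodes a SUMO ligase, was the highest, at 34.2, 35.9, 32.9 and 29.1 FPKM. With stage, *Shc1*, an adaptor gene, and *Socs1* were at least 2-fold lower at E14 in both genotypes and were singled out after their values were seen. Among all genes, 12.5% were as much lower at E14 in CTL and 11.7% in cKO. *Shc1* had 34.5, 37.8, 5.47 and 6.58 FPKM and *Socs1* 3.74, 3.88, 1.12 and 1.12.

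Some other textbook STAT3 target genes passed 2-fold at E14, which *Socs2*, *Socs3* and *Pim1* did not. The list held 24 such genes, of which 19 passed 1 FPKM, and at E14 7 were at least 2-fold lower and 1 was at least 2-fold higher in cKO, the 7 including *Cebpd*, which passed through the library where it was high. Among all genes with a ratio, 1.69% were lower and 1.85% higher by that margin. The list was chosen with earlier results of these data known, so these shares make no test of it. In all, 16 of the 19 had a ratio below 1, with a median log2 ratio of -0.80. At E11, 2 were at least 2-fold lower, against 1.12% of all genes, and the median was 0.026. The 2 included *Icam1*, which passed the minimum only through E11 CTL, the library where it was high.

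The 7 lower genes at E14 were *Ccnd1*, *Ier3*, *Timp1*, *Fos*, *Icam1*, *Junb* and *Cebpd*. *Ccnd1*, which encodes the G1 regulator cyclin D1, had 101 FPKM in E11 CTL, 120 in E11 cKO, 210 in E14 CTL and 34.2 in E14 cKO, a log2 ratio of -2.62 at E14. *Ier3*, an early response gene, had 16.9, 18.3, 8.83 and 2.24 FPKM in the same order. *Ccnd1* and *Ier3* were lowest in E14 cKO. *Fos* and *Junb* encode subunits of the AP-1 factor, which growth factors also induce. *Fos* had 0.952, 1.17, 6.74 and 2.19 FPKM, and *Junb* had 2.26, 2.03, 4.96 and 2.14. For both, E14 CTL stood above the other three libraries. The log2 ratios of these 4 genes at E11 ran from -0.15 to 0.30.

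*Timp1*, a metalloproteinase inhibitor gene on the X chromosome, had 2.87 FPKM in E14 CTL and 0.787 in E14 cKO. It is listed at chrX:20425668-20498044, a stretch far longer than its longest transcript, of 883 bases. *Cebpd*, which encodes a C/EBP transcription factor, had 1.05, 0.706, 2.09 and 0.904 FPKM in E11 CTL, E11 cKO, E14 CTL and E14 cKO, and it passed the minimum only through E14 CTL. Its listed position, chr16:15887378-16146926, is also far longer than its longest transcript, of 3746 bases. What neighbouring genes add to the values of *Timp1* and *Cebpd* was not tested. *Icam1*, an adhesion molecule gene, was at least 2-fold lower at both stages, with 2.69 FPKM in E11 CTL, 1.20 in E11 cKO, 0.468 in E14 CTL and 0.185 in E14 cKO, and it passed the minimum only through E11 CTL. *Cebpb* passed at E11 alone, with 17.1, 3.02, 6.26 and 3.25 FPKM, although its log2 ratio at E14 was -0.95. *Gadd45g*, a growth arrest gene, was the one higher at E14, with 26.5 FPKM in CTL and 58.5 in cKO. *Gfap*, the astrocyte filament gene and a classical STAT3 target, stayed below the minimum, with 0.124, 0.0625, 0.901 and 0.186 FPKM.

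**Figure D4:**
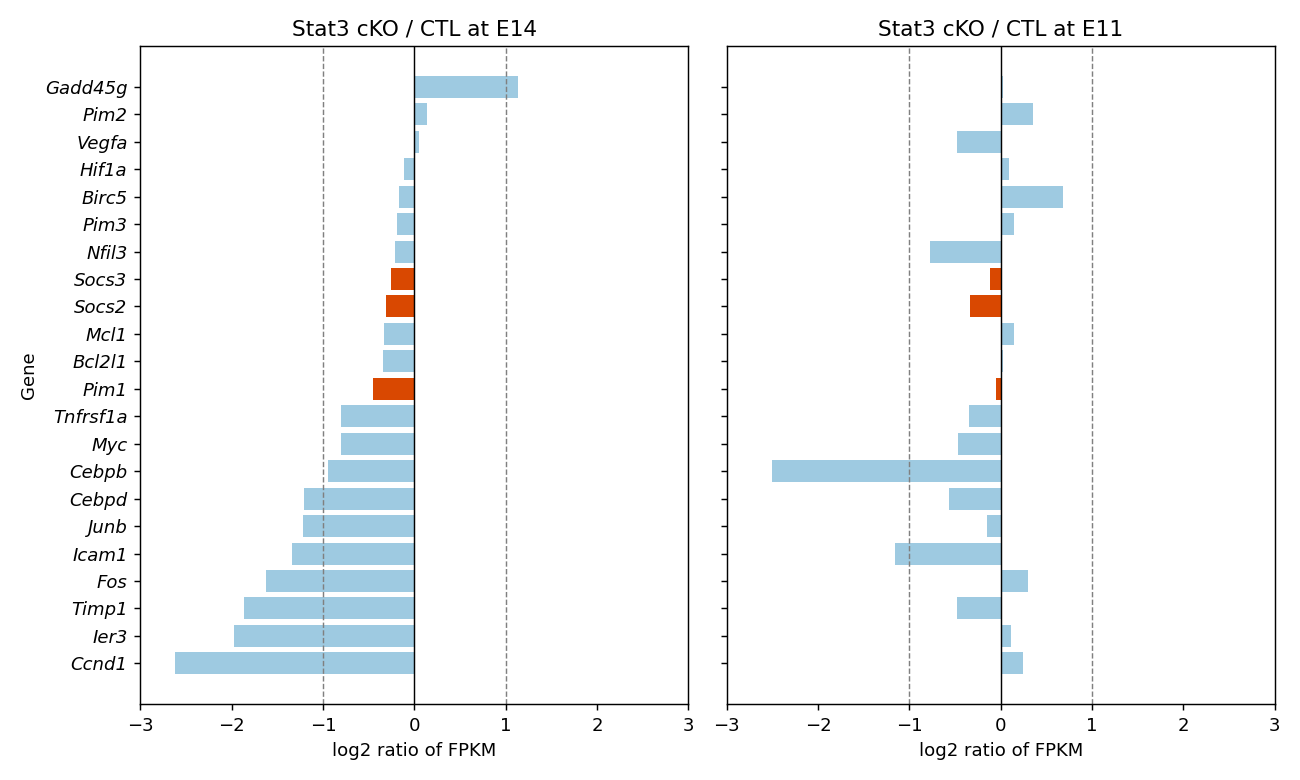
Log2 ratio of FPKM of cKO to CTL at E14 (left) and E11 (right) for *Socs2*, *Socs3* and *Pim1* (orange) and 19 other textbook STAT3 target genes (blue), ordered by their E14 value, with 1 library on each side. Dashed lines mark 2-fold, which 7 blue bars pass downwards at E14 and the orange bars do not pass.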

How the data were processed

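Neural progenitors were sequenced on an Illumina HiSeq, with 1 library per group. The authors checked reads with FastQC, ran the Tuxedo pipeline (TopHat and Cufflinks, versions not given in the sources used here), and deposited FPKM values per gene. The submitters' processing notes name Bowtie 0.12.2 and the builds mm8 and mm9 without saying which applies, and the annotation is not given in the sources used here. Read counts were not used here.

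FPKM values were used as deposited, with plain ratios over the 12449 of 21091 entries averaging 1 FPKM or more. Where a library was at 0 no ratio was formed, and a ratio of 2 was called. With 1 library per group, no test was made. Depth was estimated from the steps that single fragments leave in low values, using the longest GENCODE M21 transcript of each gene, so fragment numbers are approximate. The calls and the depth estimate were tested on simulated data. The members and gene lists were chosen with earlier results of these data known. Named were the 10 members, *Stat3*, *Gfap*, list genes averaging 1 FPKM or more and at least 2-fold apart between genotypes, the highest gene of each list and the 3 nearest profiles to *Il6st* and *Socs3*. Genes named for stage differences, *Ddx3y*, *Acta2* and *Cntf* were added after their values were seen. A gene that met this rule is not reported here. Neuron, astrocyte and oligodendrocyte markers had their highest means over the 4 libraries in *Tubb3*, *Aldoc* and *Olig1*, and their lists summed to 696, 239 and 73.0 FPKM in E11 CTL, 725, 233 and 94.2 in E11 cKO, 1043, 358 and 567 in E14 CTL and 888, 459 and 550.1 in E14 cKO. Alternatives were pseudocounts of 0.1 and 1, median and upper-quartile scaling, minima of 5 FPKM or none, and thresholds of 1.5 and 3. Python 3.11.15, numpy 2.4.6, pandas 2.3.3 and matplotlib 3.10.9 were used.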

Additional observations from a re-analysis of the deposited data

Results flagged for a closer look

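With 1 library per group, a difference between effects could be read only from opposite directions, and it was not tested. *Il6ra* had a log2 ratio of cKO to CTL of 1.08 at E14 and -0.42 at E11, while E14 against E11 gave -1.08 for CTL and 0.42 for cKO, on about 27 to 64 fragments per library. For *Ccnd1*, E14 against E11 gave 1.05 for CTL and -1.81 for cKO, and for *Gadd45g* -0.56 and 0.56.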

How the results depend on the processing

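The 2 falls from E11 to E14 in CTL, those of *Il6st* and *Cntfr*, were counted under every alternative, and 3 genes with a threshold of 1.5, which added *Pim1*. With no minimum the CTL count was 5, adding *Clcf1*, *Osmr* and *Il6ra*. In cKO the count of 2 became 1 with a pseudocount of 1 and with a threshold of 3, *Il6st* in each case, 4 with no minimum (adding *Clcf1* and *Osmr*) and 4 with a threshold of 1.5 (adding *Pim1* and *Socs3*). With median or upper-quartile scaling it was 3, as *Pim1* passed 2-fold. Between genotypes the count of 0 became 2 with no minimum at E14 (*Osmr* lower, *Il6ra* higher) and 2 at E11 (*Clcf1* and *Osmr* lower), and 1 with a threshold of 1.5 at E14 (*Cntfr*). Of 96 single-gene values under the scalings and pseudocounts, 6 changed sign, all of *Lifr* at E14 between genotypes or *Socs2* between stages, none of them near 2-fold. Upper-quartile scaling gave *Lifr* 0.10 and *Socs2* -0.37 in CTL and -0.12 in cKO, and median scaling 0.027, -0.21 and -0.025. No paired analysis was possible because each group has 1 library and no replicate numbers, and for the same reason no replicate could be left out.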
